A study of Mus musculus with 2 samples.

Results

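The 7 genes described here make or control cholesterol in the cell. They are Srebf2, the transcription factor of the pathway, the enzyme genes Hmgcs1, Idi1, Fdft1, Sqle and Cyp51, and Insig1, the brake on the factor. They were chosen by name from the pathway, with no measured value in the rule but with earlier results of these data known. They are 7 of the 32285 genes counted. Each was followed by cell state and by treatment in 42766 cells sorted as microglia from APPswe/PS1δE9 (PSAPP) mice, a strain in which transgenes for mutant APP and presenilin lead to amyloid plaques in the brain. Both treatment groups carried these transgenes and started at 9 months of age, and there were no mice without them. One group received lemborexant, an antagonist of both orexin receptors (LEM, 30 mg/kg/day by gavage), and the other its vehicle (VEH), until 10 months of age. Living CD45lo CD11b+ cells were sorted from the cortex and hippocampus of 5 mice of both sexes per treatment and pooled into 1 5′ library each, with 18374 VEH and 24392 LEM cells.

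Cells make cholesterol from acetyl-CoA through mevalonate, isoprenoid units, squalene and lanosterol. When the sterol content of the endoplasmic reticulum falls, SCAP carries the SREBP2 precursor to the Golgi, where site-1 and site-2 proteases release the part that enters the nucleus and switches on the enzymes and Srebf2 itself. INSIG proteins hold SCAP back when sterols are plentiful, and oxysterols then engage the liver X receptors (LXR), which raise the exporter Abca1, the ubiquitin ligase Mylip, and Apoe. In brain, cholesterol is made locally, and microglia that take up lipid-rich debris at plaques handle much of it.

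The promoters of 5 of the 7 members were in the RefSeq table used here (GRCm38.p6), those of Fdft1 and Sqle being not analysed. In the 250 bases before the start, the strict sterol regulatory element TCACNCCAC, searched on both strands as all motifs were, was found in 1 of the 5 members, Hmgcs1, and in 1.05% of all 32851 promoters. The looser CACNNCAC, which overlaps it, was found in 2 members, Hmgcs1 and Insig1, and in 13.5% of promoters. CCAAT, the box of the SREBP partner NF-Y, and GGGCGG, the box of Sp1, were each found in 5 of the 5 members, against 33.8% and 32.7% of promoters. Stretches of 3 promoters are shown because they hold these matches, which are in capitals, on the gene's own strand:
Hmgcs1, chr13:119690171-119690230, plus strand: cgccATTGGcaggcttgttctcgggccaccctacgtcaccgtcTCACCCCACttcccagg
Srebf2, chr15:82147054-82147143, plus strand: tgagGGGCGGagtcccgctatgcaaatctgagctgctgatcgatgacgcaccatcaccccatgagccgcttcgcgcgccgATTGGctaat
Insig1, chr5:28071177-28071256, plus strand: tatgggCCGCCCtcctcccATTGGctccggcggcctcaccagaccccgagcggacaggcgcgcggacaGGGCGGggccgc
The Hmgcs1 stretch holds the strict element 137 bases before the start and a CCAAT box, read on the other strand, 176 bases before it. The Srebf2 and Insig1 stretches hold CCAAT and GGGCGG matches. A match describes the sequence and is not evidence that a factor binds. By GENCODE M21 on GRCm38, the genes themselves lie at chr15:82147181-82205379 (Srebf2), chr13:119690379-119708260 (Hmgcs1), chr15:59315077-59331192 (Sqle) and chr5:28071363-28078662 (Insig1) on the plus strand, and at chr5:4081145-4104746 (Cyp51) on the minus strand.

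The libraries held 116229678 VEH and 160752298 LEM counts, with medians of 5971 and 6034 per cell, and levels are given as CPM, a gene's counts summed over cells and scaled to the total of those cells. Cells were gated on raw counts of markers, none of which is a member. The homeostatic-like gate (at most 1 marker of disease-associated microglia, DAM, and at least 4 of 8 homeostatic markers) took 16487 VEH and 21460 LEM cells. The DAM-like gate (at least 4 of 7 DAM markers, the eighth listed marker, Clec7a, being not analysed here) took 358 VEH and 455 LEM cells. An intermediate gate of 2 or 3 DAM markers took 836 and 1229 cells. Interferon gates took 329 and 562, S phase 103 and 199, mitotic 137 and 209, border-associated macrophage-like (BAM-like) 25 and 68, and choroid plexus-like 50 and 148 cells. As the gate requires, Cst7 was at 11.8 and 10.7 CPM in homeostatic-like and 1819 and 1422 CPM in DAM-like cells of the VEH and LEM libraries. P2ry12, which the DAM-like gate does not use, was at 4511 and 4341 CPM in homeostatic-like and 2165 and 2302 CPM in DAM-like cells. Each treatment has a single library, so there is neither a replicate nor a test between treatments. Intervals are 95% intervals for counting error only, and do not cover the spread between mice. Cells were also split by Xist and Y-linked counts into 4 pools by library and sex, which come from different mice and are not replicates of a treatment.

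The members were at nearly the same level in LEM and VEH microglia. Sqle was held by 0.512% of VEH and 0.668% of LEM cells and fell short of the 1% of cells asked of a gene for a call. Of the other 6 members, 0 were past 1.2-fold in either direction, while over the 11910 genes so detected 5.7% were higher and 4.07% lower by that much. The summed counts of the 7 members differed by a log2 ratio of 0.01 (-0.03 to 0.05), LEM over VEH, beside a median of 0.01 over all detected genes. Within female cells the summed ratio was -0.0012, and within male cells it was -0.01. In these pooled libraries, a change in the level per cell and a change in the mix of cells cannot be told apart from such totals, so the states are taken up separately below.

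Srebf2 had the only interval among the members that left 0 out over all cells, and 48.6% of all detected genes had such an interval. It was at 11.7 CPM in VEH and 12.8 CPM in LEM cells, a log2 ratio of 0.13 (0.03 to 0.23). In the pools it was at 12.3 and 13.4 CPM in female cells and at 11.1 and 12.1 CPM in male cells, so that LEM was the higher in both sexes, by 0.12 each, with intervals that held 0. Within homeostatic-like cells the ratio was 0.11 (-0.0028 to 0.23).

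Hmgcs1, Idi1 and Fdft1 had ratios near 0. Hmgcs1, whose enzyme condenses acetyl groups into HMG-CoA, was at 18.9 and 19.0 CPM, a ratio of 0.01 (-0.07 to 0.09). Idi1, which isomerizes the isoprenoid unit, was at 4.47 and 4.45 CPM, a ratio of -0.01 (-0.17 to 0.16). Fdft1, squalene synthase, was at 13.4 CPM in both libraries, a ratio of 0.0039 (-0.09 to 0.10). These 3 genes had intervals that held 0 in female and in male cells as well. Insig1 was at 8.91 CPM in VEH and 8.35 CPM in LEM cells, a ratio of -0.09 (-0.21 to 0.02), and was the lower in LEM in both sexes.

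Cyp51 and Sqle, the latter under the detection minimum, had an interval that left 0 out in 1 sex each, as had 39.4% of all detected genes. Cyp51, lanosterol demethylase, was at 10.3 and 9.87 CPM over all cells (-0.06, -0.17 to 0.05). It was at 10.9 CPM in VEH and 9.11 CPM in LEM female cells (-0.26, -0.45 to -0.06), and at 9.94 and 10.3 CPM in male cells (0.05, -0.11 to 0.21). Sqle, squalene epoxidase and the rarest member, had 106 counts in VEH and 179 in LEM cells, or 0.912 and 1.11 CPM (0.29, -0.07 to 0.65). Its ratio was 0.63 (0.08 to 1.2) in male cells and 0.04 (-0.56 to 0.65) in female cells. The difference between the sexes was not tested for either gene.

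**Figure D1:**
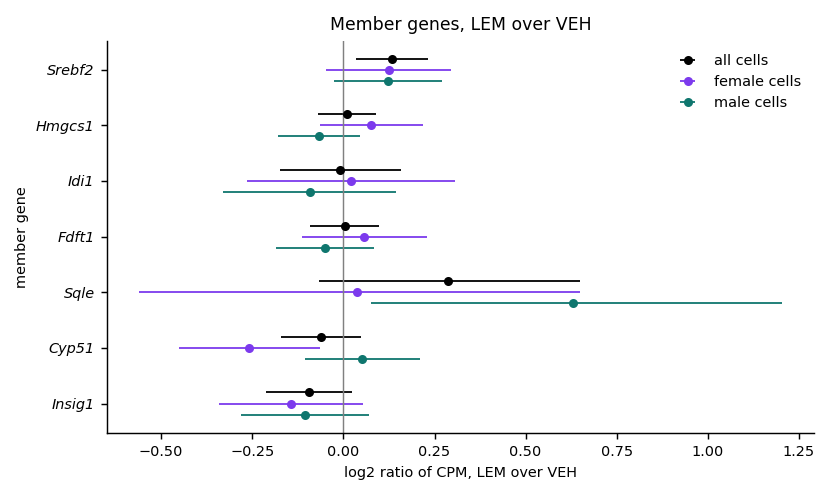
Log2 ratio of CPM, LEM over VEH (x axis), for each of the 7 member genes (y axis) over all cells and within female and male cells; points are ratios and bars are 95% intervals for counting error. Most intervals hold 0, Srebf2 lies at 0.13 over all cells, and Sqle has the widest intervals.

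The wider pathway also held no gene past the fold. With the 6 mevalonate-arm, 8 sterol-arm and 5 SREBP-machinery genes and 7 further SREBP2 targets added, 29 genes including the 6 members were detected in 1% of cells, and 0 were past 1.2-fold in LEM over VEH in either direction. The ratios of the detected genes that are not members ran from -0.12 for Fdps, farnesyl diphosphate synthase, to 0.19 for Mmab. Of these 23 genes, 6 had intervals above 0 and 2 below, against the 48.6% of all detected genes with an interval on either side. The 6 were Ebp, Dhcr7, Srebf1, Npc1, Tmem97 and Mmab, and the 2 were Fdps and Acly. Dhcr7, a late enzyme, was at 0.18 (0.09 to 0.27) and Srebf1, the sister factor, at 0.16 (0.09 to 0.23). The median over the 6 detected members was -0.0023, and that over the 4 detected SREBP2 targets outside synthesis was 0.14. Of the lists around the pathway, 1 of 7 efflux and LXR genes, 1 of 6 storage genes and 0 of 4 fatty acid genes were past the fold, all upward. Apoe, the main lipoprotein of the brain, was at 1425 CPM in VEH and 2151 CPM in LEM cells, ratios of 0.49 in female and 0.70 in male cells. Soat2, a rare gene of cholesterol esterification, was at 2.27 and 3.10 CPM, with ratios of 0.05 in female and 0.73 in male cells.

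Cell state went with far larger differences than treatment. All 7 members were higher in DAM-like than in homeostatic-like cells, in both libraries and in each of the 4 pools, with 28 of 28 member-by-pool intervals above 0. Intervals above 0 in all 4 pools were held by 7.06% of the 11910 detected genes. The 6 detected members were past 1.5-fold in both libraries, against 5.96% of the detected genes past it upward and 18% downward. Hmgcs1 and Fdft1 lay near that fold, and in LEM did not keep it under every alternative. Hmgcs1 in LEM was at 0.53 with 3 or more DAM markers, 0.51 in female cells alone and just under the fold in male cells alone. Fdft1 in LEM was just under the fold with 3 or more markers and at 0.29 with gates drawn on thinned counts. The median log2 ratio of all detected genes was -0.32 in VEH and -0.33 in LEM, so that the members stood further above the middle of the genes than above 0. Averaged over the libraries, as for the medians of the lists in these gates, the median of the 6 detected members was 1.41. The summed counts of the members had a log2 ratio of 1.37 (1.26 to 1.49) in VEH and 1.26 (1.15 to 1.36) in LEM. DAM-like cells were also deeper, with medians of 11758.5 and 12222 counts against 5804 and 5847.

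Srebf2 itself was higher in DAM-like cells. It was at 10.6 CPM in homeostatic-like and 26.6 CPM in DAM-like VEH cells, and at 11.4 and 28.5 CPM in LEM cells. The log2 ratios were 1.33 (1.03 to 1.61) and 1.32 (1.07 to 1.56), close to each other. In the pools its DAM-like level ran from 23.0 to 32.1 CPM and its homeostatic-like level from 10.2 to 11.96 CPM, so the pools did not overlap, as was the case upward for 10.7% of the detected genes.

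Insig1, a direct SREBP target whose protein holds SCAP back, had one of the larger rises. It was at 7.44 and 30.4 CPM in VEH and at 6.85 and 26.9 CPM in LEM, ratios of 2.03 (1.75 to 2.30) and 1.97 (1.71 to 2.22). The 4 pools of DAM-like cells lay between 25.9 and 41.8 CPM, and those of homeostatic-like cells between 6.52 and 8.23 CPM.

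Among the enzymes, the rise was uneven along the route. Hmgcs1, the first member enzyme, went from 18.2 to 31.3 CPM in VEH and from 18.4 to 29.9 CPM in LEM, ratios of 0.78 (0.52 to 1.04) and 0.71 (0.47 to 0.93). Idi1 went from 3.61 to 15.5 CPM and from 3.60 to 11.8 CPM, ratios of 2.11 (1.70 to 2.49) and 1.71 (1.32 to 2.09). Fdft1, at the entry to the sterol branch, went from 12.5 to 21.0 CPM and from 12.3 to 20.3 CPM, ratios of 0.75 (0.42 to 1.06) and 0.73 (0.44 to 1.00). Hmgcs1 and Fdft1 thus rose least. These 3 genes did not overlap between the pools of the gates, as was the case upward for 10.7% of the detected genes. Cyp51 went from 9.00 to 26.6 CPM and from 8.70 to 23.4 CPM, ratios of 1.56 (1.26 to 1.85) and 1.43 (1.15 to 1.69).

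Sqle, whose enzyme oxidizes squalene and limits the flow through the sterol branch, had the largest ratio of the members. It was at 0.363 CPM in homeostatic-like and 8.37 CPM in DAM-like VEH cells, and at 0.405 and 6.53 CPM in LEM cells. The ratios were 4.53 (3.81 to 5.24) and 4.01 (3.36 to 4.65), from 35 and 36 counts in the DAM-like cells. It was rare in homeostatic-like cells. A count was held by 0.212% of VEH (Clopper-Pearson interval 0.148% to 0.295%) and 0.242% of LEM cells (0.181% to 0.318%), against 8.38% (5.73% to 11.7%) and 7.03% (4.86% to 9.78%) of DAM-like cells. With every cell thinned to 2000 counts these shares were 0.0459% and 0.0836% against 2.25% and 1.76%. Choroid plexus-like cells held Sqle in 12% and 14.2% of cells before thinning at medians of 9246 and 8046 counts. These shares were above those of homeostatic-like and DAM-like cells before thinning. After thinning they were 0% (0% to 7.40%) of 48 VEH cells and 1.42% (0.172% to 5.03%) of 141 LEM cells. Those values lay below the thinned DAM-like shares, with wide intervals. In mitotic cells Sqle was held by 2.92% of VEH and 10.05% of LEM cells, at 2.81 and 10.3 CPM, so that its LEM level there was above that of DAM-like cells.

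The shares of the other members were also higher in DAM-like than in homeostatic-like cells at matched depth. Srebf2 had a count in 5.88% of homeostatic-like and 25.4% of DAM-like VEH cells, and in 6.48% and 25.7% of LEM cells. After thinning these were 2.19% and 7.61%, and 2.24% and 5.73%. Insig1 went from 4.08% to 24.02% in VEH and from 3.98% to 22.6% in LEM, and after thinning from 1.42% to 4.23% and from 1.29% to 3.30%.

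**Figure D2:**
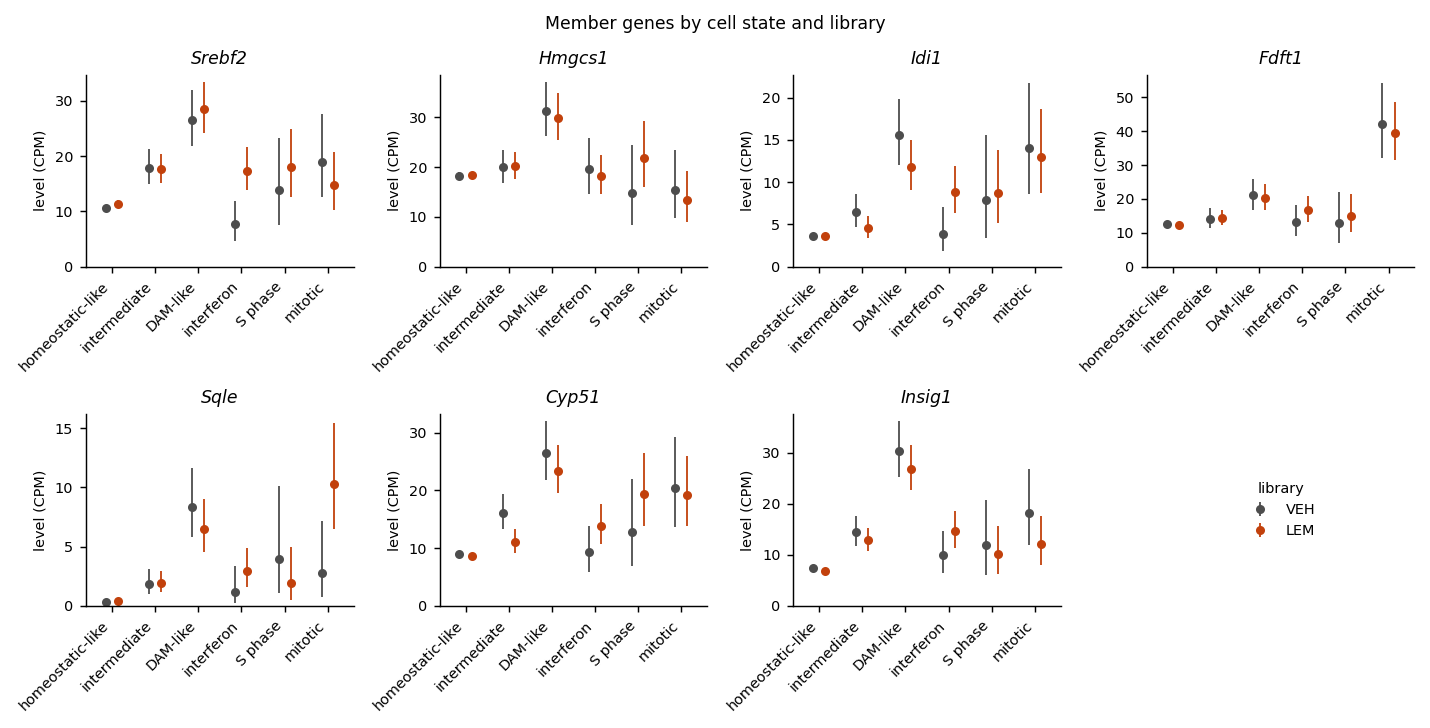
Level (CPM, y axis, from 0) of each member by cell state (x axis) in the VEH and LEM libraries; points are summed levels and bars are 95% intervals for counting error. In DAM-like cells all 7 members lie above the homeostatic-like cells, and Fdft1 is higher in mitotic than in DAM-like cells. Srebf2 in interferon cells is at 7.73 CPM in VEH and 17.4 CPM in LEM.

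The gap in depth was then narrowed. Among cells of 10000 or more counts, 230 DAM-like and 1263 homeostatic-like VEH cells and 302 and 1891 LEM cells were left, with medians of 13808.5 and 12183 counts in VEH and 14406 and 12507 in LEM. Srebf2 had ratios of 1.24 (0.84 to 1.62) and 1.2 (0.87 to 1.52), Insig1 of 1.86 and 2.18, Cyp51 of 1.59 and 1.28, and Idi1 of 2.12 and 1.87. Hmgcs1 was at 0.76 and 0.82, Fdft1 at 0.94 and 0.85, and Sqle at 5.53 and 4.17. All 14 ratios were above 0 with their intervals. With the gates themselves drawn on counts thinned to 2000, only 59 VEH and 85 LEM cells were DAM-like, and the ratios of Idi1 were 3.37 and 1.27 and those of Fdft1 1.53 and 0.29, the last under the fold. Cyp51 in VEH was at 2.27 and Srebf2 in LEM at 1.89 with these gates.

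Markers of other cells were counted in the same gates, and their part in the result was not tested. Oligodendrocyte markers (5 of 5 in the table) were at 58.3 and 62.1 summed CPM in homeostatic-like and 55.3 and 65.3 CPM in DAM-like cells of VEH and LEM. Within that sum Mbp rose from 27.8 and 29.4 to 40.9 and 46.1 CPM. Mag fell from 29.1 and 31.0 to 12.9 and 16.3 CPM. Astrocyte markers went from 2.52 and 2.86 to 8.37 and 11.8 CPM, with Gja1 at 0 in the DAM-like VEH cells. Aqp4 among them was lower, at 0.239 and 0.726 CPM in DAM-like against 0.726 and 0.855 CPM in homeostatic-like cells. Neuronal markers were at 0.867 and 0.735 CPM against 0 and 0.363, and endothelial markers at 13.9 and 10.5 CPM against 2.39 and 2.36. The summed level of the immediate-early and heat-shock genes that mark dissociation was lower in DAM-like cells, at 6342 and 5575 CPM against 11137 and 9727, while Atf3 among them was higher, at 379 and 319 CPM against 323 and 264.

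Fdft1 and Idi1 carry a limit of their own. The end of Fdft1 (chr14:63145150-63179578, minus strand) lies over the end of Ctsb on the plus strand for 774 bases. Ctsb, a lysosomal protease gene, is abundant and rose from 2043 and 2221 to 6240 and 6563 CPM in DAM-like cells. Whether the counting used strand is not given in the sources used here, so reads of the 2 genes in that overlap may not be separable. In mitotic cells Ctsb was at 1900 and 1992 CPM, below its homeostatic-like level, while Fdft1 was at 42.2 and 39.4 CPM. Idi1 (chr13:8885501-8892451, plus strand) shares 684 bases at 100% identity with the pseudogene Gm13502, and Fdft1 1249 bases at 97.4% with Gm6781. Neither pseudogene is in the count table, and reads that fit both copies may have been lost, so the levels of these members are uncertain.

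The levels were higher in cells that held several DAM markers, though not at every step. Srebf2 was at 10.6 CPM in VEH cells with 0 markers and with 1, 14.5 CPM with 2, 25.2 CPM with 3, 23.8 CPM with 4, 30.3 CPM with 5 and 23.9 CPM with 6 or more. In LEM cells these were 11.5, 11.2, 17.3, 18.5, 29.4, 27.8 and 27.5 CPM. Insig1 over the same steps was at 7.0, 9.22, 13.5, 16.6, 34.3, 26.9 and 27.9 CPM in VEH, and at 6.51, 7.92, 10.6, 18.5, 21.1, 32.6 and 29.8 CPM in LEM. From 3 markers on the order of the steps differed between the libraries, and with 6 or more markers only 40 VEH and 63 LEM cells were left. Median depth rose over the same steps, from 5624 and 5675.5 to 12768.5 and 14435 counts.

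**Figure D3:**
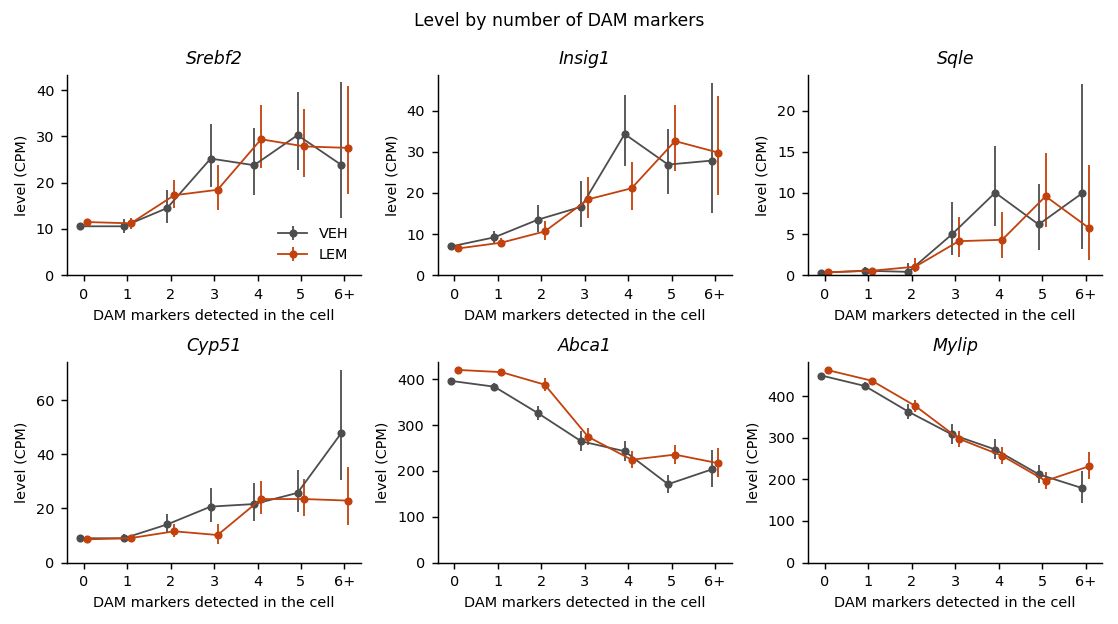
Level (CPM, y axis, from 0) of 6 genes by the number of DAM markers detected in a cell (x axis) in the VEH and LEM libraries, with 95% intervals for counting error. Srebf2, Insig1, Sqle and Cyp51 are higher in cells with 4 or more markers than in cells with 0, and Abca1 and Mylip are lower.

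The intermediate gate fell between the others for Srebf2, Insig1 and Sqle and stayed near the homeostatic-like level for Hmgcs1 and Fdft1. Srebf2 was at 17.9 and 17.6 CPM, 0.76 (0.48 to 1.02) and 0.63 (0.40 to 0.84) above homeostatic-like cells in VEH and LEM on the log2 scale. Insig1 was at 14.5 and 12.9 CPM, ratios of 0.96 and 0.91. Hmgcs1 had ratios of 0.13 (-0.12 to 0.38) and 0.14 (-0.06 to 0.34). Cyp51 was at 16.2 CPM in VEH and 11.2 CPM in LEM intermediate cells, so that LEM was lower by a ratio of -0.54 (-0.92 to -0.15).

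The 12 genes past 1.5-fold in both libraries, of the 29 detected across the pathway, took in the 6 detected members and 6 others, and 0 were lower. In the mevalonate arm, 2 of 6 detected genes rose. Fdps went from 19.4 to 57.6 CPM in VEH and from 17.5 to 50.1 CPM in LEM, ratios of 1.57 (1.37 to 1.77) and 1.51 (1.33 to 1.69). Pmvk, phosphomevalonate kinase, had ratios of 1.19 and 1.07. Mvd and Acat2 had intervals that held 0 in both libraries, and Mvk had ratios of 0.06 (-0.46 to 0.54) and -0.50 (-1.02 to -0.02). Ggps1, which draws the isoprenoid chain off toward protein prenylation, was lower in 4 of 4 pools, at -0.33 (-0.55 to -0.11) and -0.73 (-0.95 to -0.52), which became -0.01 and -0.40 when scaled to the median gene. A ratio below 0 in all 4 pools was found for 54.8% of the detected genes. The median of the arm was -0.16, against -0.34 over all detected genes.

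In the sterol arm 3 of 8 detected genes rose past the fold. Msmo1, the C4 methyl oxidase, went from 25.9 to 63.1 CPM in VEH and from 26.8 to 50.8 CPM in LEM, ratios of 1.28 and 0.92. Sc5d, a desaturase, had ratios of 1.3 and 1.43, and Dhcr7, the late enzyme named above, of 1.11 and 0.99. Ebp, the sterol isomerase and the most counted gene of the arm, was level at 82.0 and 84.2 CPM in VEH, a ratio of 0.04 (-0.12 to 0.19). The median of the arm was 0.65.

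Of 4 detected SREBP2 targets outside synthesis, 0 were past the fold in both libraries, and the median was -0.06. Npc1, the lysosomal cholesterol exporter, had ratios of -0.15 and -0.37, the first of which was 0.16 when scaled to the median gene. Tmem97 had ratios of 0.82 and 0.48, the second under the fold. Stard4, a sterol carrier below the detection minimum, went from 1.07 to 5.02 CPM and from 1.04 to 5.99 CPM.

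Of the machinery around SREBP2, 1 of 5 genes was past the fold and the others were not, with a median of -0.31 for the list. Srebf1, the sister factor and itself an SREBP and LXR target, had ratios of 1.00 (0.77 to 1.22) and 0.62 (0.41 to 0.83). Scap was at -0.47 and -0.35, Insig2 at -0.34 and -0.29, Mbtps1 (site-1 protease) at -0.22 and -0.17, and Mbtps2 (site-2 protease) at -0.52 and -0.38. Each of these 4 was lower in 4 of 4 pools and under the fold. A ratio below 0 in all 4 pools was found for 54.8% of the detected genes, whose median was -0.34. Scaled to the median gene instead, Insig2 in LEM and Mbtps1 in both libraries turned to 0.04, 0.10 and 0.16, and Scap and Mbtps2 lay between -0.20 and -0.02. Insig1 was past the fold upward in the same cells, and Insig2 was not.

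Genes of the efflux and LXR list went 2 ways, with a list median of -0.26. Abca1 fell from 394 to 207 CPM in VEH and from 419 to 227 CPM in LEM, ratios of -0.93 (-1.02 to -0.83) and -0.88 (-0.96 to -0.80). Mylip went from 445 to 235.4 CPM and from 456 to 230.1 CPM, ratios of -0.92 and -0.99, and Lpcat3 had ratios of -0.71 and -0.65. These 3 of 7 detected genes of the list were lower past the fold. Scaled to the median gene, Mylip stayed past it in both libraries, at -0.60 and -0.66, while Abca1 in LEM (-0.55) and Lpcat3 in both (-0.39 and -0.32) did not. Apoe rose from 1041 to 7220 CPM and from 1699 to 7357 CPM, and Smpdl3a by ratios of 1.41 and 0.96. Abcg1 was at -0.32 and -0.21, which became 0.00076 and 0.12 when scaled to the median gene. Abca1 went from 396 CPM with 0 DAM markers to 171 CPM with 5 in VEH and from 420.3 to 236 CPM in LEM, the opposite course to Srebf2.

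Of the storage and turnover list, 2 of 6 detected genes rose past the fold in both libraries and 0 fell past it in both, with a median of 0.53. Cyp27a1 was lower, at -0.89 (-1.40 to -0.42) and -0.48 (-0.85 to -0.13), the second under the fold. These became -0.57 and -0.15 when scaled to the median gene. Soat2 was at -0.23 (-1.46 to 0.78) and -1.10 (-2.32 to -0.11), from 8 counts in the DAM-like cells of each library. Npc2, the lysosomal carrier of cholesterol, had ratios of 1.33 and 1.29, and Nceh1, a cholesteryl ester hydrolase, of 2.75 and 2.39. Soat1, which esterifies cholesterol for storage, was at 0.74 and 0.55, the second under the fold. Ch25h, which makes the oxysterol that blocks SREBP2 release, was too rare for the minimum, at 0.182 and 40.7 CPM in VEH and 0.180 and 34.8 CPM in LEM. Of the fatty acid list, Fasn, Acaca and Scd2, 3 of 4 detected genes, rose past the fold, with a median of 1.29. Acaca, acetyl-CoA carboxylase, had ratios of 2.28 and 2.31.

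**Figure D4:**
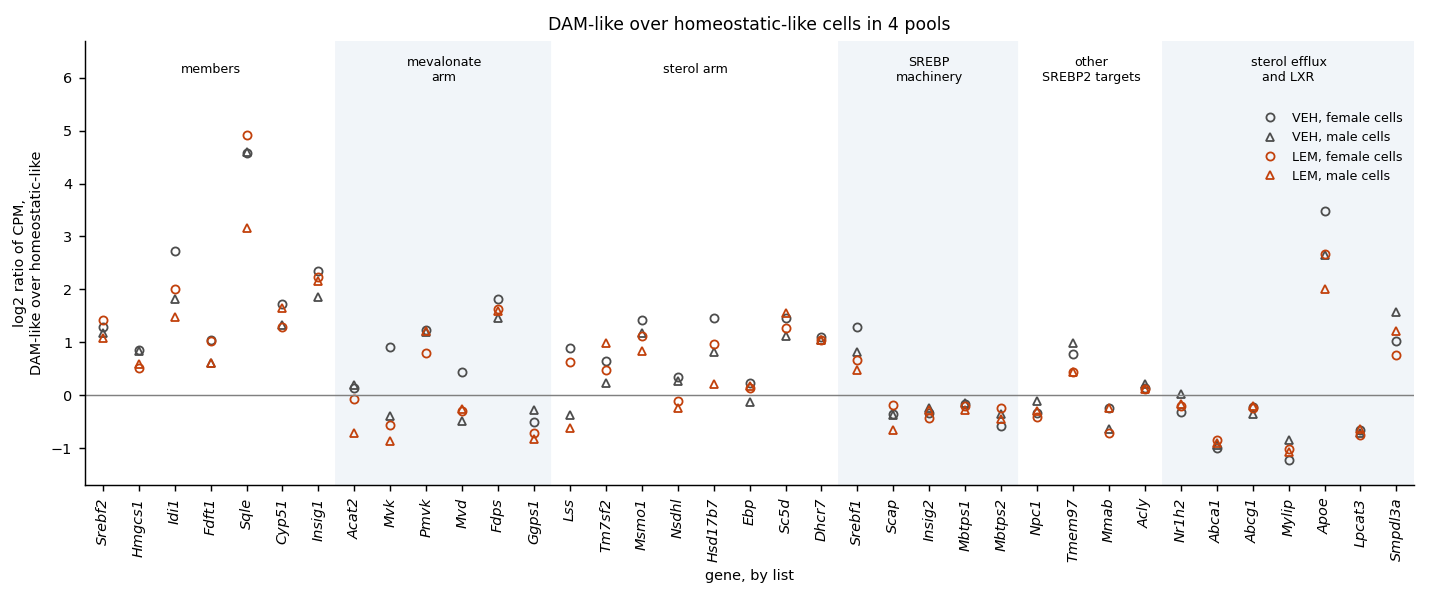
Log2 ratio of CPM, DAM-like over homeostatic-like (y axis), for the members and the detected genes of 5 lists (x axis), with a point for each of 4 pools by library (colour) and sex (shape). The 7 members lie above 0 in every pool, and Scap, Insig2, Mbtps1, Mbtps2, Abca1, Mylip and Lpcat3 lie below 0 in every pool. A ratio below 0 in every pool was found for 54.8% of the detected genes.

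Other states had patterns of their own, and higher levels than in homeostatic-like cells were not particular to DAM-like cells. Ratios here are log2 over homeostatic-like cells. In LEM interferon cells, intervals lay above 0 for Srebf2 (0.61), Idi1 (1.29), Fdft1 (0.45), Sqle (2.86), Cyp51 (0.67) and Insig1 (1.097). The interval of Hmgcs1 held 0 there, as did those of all members in VEH interferon cells. In S phase cells, intervals lay above 0 for Srebf2, Idi1, Sqle and Cyp51 in LEM, and for Sqle alone in VEH. In mitotic cells Fdft1 was at 42.2 CPM in VEH and 39.4 CPM in LEM, ratios of 1.76 (1.36 to 2.13) and 1.68 (1.35 to 1.99) over homeostatic-like cells, above its level in DAM-like cells. Idi1 was also higher there, by 1.96 and 1.85, and Cyp51 by 1.18 and 1.15. Insig1 was higher by 1.298 and 0.82. Srebf2 was higher by 0.85 in VEH mitotic cells, and its LEM interval held 0. Hmgcs1 was at 15.5 and 13.4 CPM, with ratios of -0.23 (-0.91 to 0.37) and -0.45 (-1.02 to 0.07). In choroid plexus-like cells Sqle was at 20.7 and 18.3 CPM and Fdft1 at 45.5 and 37.4 CPM. These cells also held the 8 homeostatic markers, at 19509 and 15824 summed CPM in VEH and LEM against 30846 and 31095 in homeostatic-like cells. In BAM-like cells no member passed 20 counts in either library. Their log2 ratios over homeostatic-like cells are given in parentheses. In the LEM cells of that gate Srebf2 was at 31.0 CPM (1.44, 0.68 to 2.11) and Hmgcs1 at 34.4 CPM (0.91, 0.19 to 1.54). Idi1 was at 22.4 CPM (2.64, 1.72 to 3.42) and Cyp51 at 25.8 CPM (1.57, 0.73 to 2.30). These members lay near or above their DAM-like levels. Fdft1 at 8.61 CPM and Insig1 at 12.05 CPM lay below theirs, with intervals over homeostatic-like cells that held 0. Sqle, at 5.16 CPM from 3 counts, was also below its DAM-like level. In the VEH cells of that gate Idi1, at 18.9 CPM from 4 counts, was above its DAM-like level. Every other member was below its own.

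Within states, most treatment ratios lay inside counting error. Of 55 member-and-state pairs with a ratio, 5 had intervals that left 0 out, 3 higher and 2 lower in LEM, against 15.7% of the pairs of all detected genes, and none of these was in homeostatic-like or DAM-like cells. In DAM-like cells Srebf2 had a ratio of 0.10 (-0.26 to 0.47) and Insig1 of -0.18 (-0.53 to 0.18), LEM over VEH. In interferon cells Srebf2 was at 7.73 CPM in VEH and 17.4 CPM in LEM, from 20 and 83 counts, a ratio of 1.17 (0.45 to 1.95). Its ratio there was 0.01 (-1.12 to 1.28) among female cells and 2.11 (0.84 to 3.66) among male ones, the latter from 6 and 32 counts. Interferon cells in neither pool, 71 in VEH and 130 in LEM, had a ratio of 1.23 (-0.19 to 2.97), from 5 and 24 counts. The interferon gate held 77 female and 181 male cells in VEH and 219 and 213 in LEM. Idi1 had a ratio of 1.19 (0.17 to 2.35) in interferon cells, from 10 and 42 counts. The other pairs were Sqle in mitotic cells (1.87, 0.32 to 3.86, 4 and 23 counts), Cyp51 in intermediate cells, and Hmgcs1 in choroid plexus-like cells (-0.82, -1.56 to -0.04).

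Insig1 was higher in female than in male cells of both libraries, with intervals clear of 0, as were 12.1% of all detected genes in one direction or the other. It was at 10.1 CPM in female and 8.47 CPM in male VEH cells, and at 9.17 and 7.87 CPM in LEM cells, female over male ratios of 0.26 (0.06 to 0.46) and 0.22 (0.05 to 0.40). Srebf2 had ratios of 0.15 (-0.02 to 0.33) and 0.15 (0.01 to 0.30). The other members had no direction that held in both libraries with intervals clear of 0.

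Counts of the members came together in the same cells for some of them. With every cell thinned to 2000 counts, cells were grouped by the summed counts of the other 6 members. Insig1 was at 7.46 CPM with 0 of those counts, 8.77 CPM with 1 and 32.2 CPM with 2, and Sqle at 0.494, 2.15 and 13.9 CPM. Srebf2 was at 11.96, 16.6 and 26.6 CPM, and Idi1 at 3.76, 5.69 and 13.7 CPM. Hmgcs1, Fdft1 and Cyp51 moved less, at 18.2 to 23.6, 12.6 to 11.5 and 9.58 to 14.2 CPM from 0 to 2. With 3 or more counts against 0, Srebf2 was higher by a log2 ratio of 2.45 (0.17 to 4.0). The intervals of Idi1, Fdft1, Cyp51 and Insig1 held 0, with Insig1 at 1.67 (-3.63 to 4.16), and Hmgcs1 and Sqle had 0 counts in the cells of 3 or more. With 2 or more counts against 0, a split chosen after the values were seen, Insig1 was higher by a log2 ratio of 1.58 (0.51 to 2.47) among homeostatic-like cells and 3.40 (1.83 to 4.83) among DAM-like cells, from 10 and 7 counts. Srebf2 was at 0.91 (-0.30 to 1.90) and 1.81 (0.27 to 3.07). Among homeostatic-like cells Hmgcs1 was at -0.14, Fdft1 at 0.24 and Cyp51 at 0.03, and the intervals of these 3 held 0 there and among DAM-like cells, while those of Idi1 and Sqle lay above 0 in both. The latter rest on few counts, 6 of Idi1 and 3 of Sqle among homeostatic-like cells and 3 and 4 among DAM-like cells.

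Cells with 3 or more member counts at that depth were rare, and made up a larger share of DAM-like cells. The share was 1.41% of DAM-like and 0.0786% of homeostatic-like VEH cells, and 1.32% and 0.0541% of LEM cells. The 4 pools held only 8, 10, 11 and 7 such cells. Against cells with 0 member counts, 0.727% of the 9355 genes tested were higher and 0.128% lower by 1.5-fold in all 4 pools. Of the detected genes of the other lists, Apoe was past that fold in all 4 pools, with a mean log2 ratio of 1.37. Most of the other listed genes had 0 counts in such cells of some pool, so they could not pass. Their absence is therefore no result about them. Among genes higher in all 4 pools, and so counted in such cells of each, the 10 with the highest mean ratio were Cst7, Vat1, Cd74, St8sia6, Csf1, Itgax, Rap2b, Hcar2, Nup155 and Plaur. Of these, Cst7, Csf1 and Itgax are DAM markers of the gate. Csf1 was under the fold in LEM female cells. Nup155 was lower in DAM-like than in homeostatic-like cells, by -0.60.

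Genes with the profile most like the members were sought over 16 profiles of state, library and sex with 100 or more cells each, among 6884 genes of 20 CPM or more. The 10 with the highest Pearson correlation with the members' mean were Gng5 (0.97), Ndufs5, Cox7a2, Atp5g2, Rtcb, Myl6, Bola2, Ndufa2, Fdps (0.94) and Nop10 (0.94). Fdps was the only one of them in a pathway list. The profiles share libraries and gates and are not independent, so these values are a description. Of the other listed genes, Acaca was at 0.94, and Srebf1 and Ch25h were at 0.92, while Abca1 was at -0.95 and Mylip at -0.92. The lists did not divide cleanly. In the mevalonate arm Mvk was at 0.10, Mvd at -0.30 and Ggps1 at -0.74, and the SREBP2 target Npc1 was at -0.65. Apoe of the efflux and LXR list was at 0.73.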

How the data were processed

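Microglia of 2 treatments were measured, with 5 mice pooled into 1 library each. The authors deposited whole-number UMI counts per gene and cell, from 10x Chromium 5′ libraries processed by Cell Ranger (version 8.0.0) against mm10. The methods name SoupX for free RNA and remove cells of few genes, many counts or high mitochondrial share. Whether the SoupX step is in the deposited counts cannot be told. The table holds 42766 cells, fewer than the study states, and 0 columns matched no sample. Cells are numbered, so barcodes shared between libraries could not be counted, and it has no cell type annotation.

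CPM was computed from summed counts, with exact Poisson intervals, exact conditional binomial intervals for log2 ratios and Clopper-Pearson intervals for shares, all at 95%. These cover counting error only, and cells of a library share their mice. No p-value is given. No ratio was made where both sums were at most 3 counts. Cells took the first gate they met: choroid plexus-like (50 or more Ttr counts and 2 other markers), BAM-like (3 markers), mitotic, S phase, interferon (4 each), DAM-like, intermediate, homeostatic-like. Cells called both sexes (981 VEH, 1764 LEM) or neither (2682 and 2996) entered no pool. Thinning to 2000 counts left out 1305 VEH and 1215 LEM cells. Doublets were kept; in an alternative, the Scrublet (scanpy 1.11.5) scores above 0.341 and 0.34 were left out (9.83% and 9.85% of cells, the expected rate being 0.1, since the automatic threshold called 0 VEH cells and 3113 LEM cells). The ratio, gate and thinning steps were tested on simulated data. Members, lists and tests were chosen with earlier results of these data known. The genes named are the members, genes of the pathway lists, and the 10 leading genes of the profile and co-detection steps. Some genes of the pathway are not reported here and enter no list count. Positions are from GENCODE M21 (GRCm38). Scripts ran in Python 3.11.15 with scipy 1.17.1, numpy 2.4.6 and pandas 2.3.3, and figures were drawn in matplotlib 3.10.9.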

Additional observations from a re-analysis of the deposited data

Results flagged for a closer look

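For 6 of the 40 detected listed genes that are not members, the LEM over VEH log2 ratio went one way in female cells and the other in male cells, each with an interval that left 0 out; the difference between the sexes was not tested. Among all 11910 detected genes 8.9% had such a pair of intervals. Acat2, which makes acetoacetyl-CoA, had ratios of -0.30 in female and 0.17 in male cells. Scd2, a fatty acid desaturase, had -0.16 and 0.24, and Cyp27a1, a sterol hydroxylase, -0.16 and 0.21. The exporters Abca1 and Abcg1 had -0.059 and 0.19, and -0.075 and 0.10. Ggps1 had -0.13 and 0.078. Each sex comes from a few mice pooled within 1 library per treatment, and mice of one sex cannot be told apart in it.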

How the results depend on the processing

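No paired analysis was possible because each treatment has 1 library, and for the same reason no replicate could be left out. The summed ratio of the members, LEM over VEH, stayed within the spread of counting error in all 12 alternatives. The summed DAM-like over homeostatic-like ratio stayed above 0 in all 9 alternatives in both libraries, its size moving as follows, from 1.37 in VEH and 1.26 in LEM. It was 1.25 and 1.04 with 3 or more DAM markers, 1.49 and 1.40 with 5 or more, and 1.69 and 1.59 when scaled to the median gene. It was 1.63 and 1.39 in female cells alone, 1.22 in male VEH cells alone, and 1.90 in VEH with gates drawn on thinned counts. Among the 29 detected pathway genes, a fold of 1.1 gave 4 higher in LEM over VEH instead of 0, and a detection minimum of 10% of cells left 4 instead of 12 higher in DAM-like cells, since fewer genes were tested. Of the values for single genes under each alternative, 192 stayed within counting error and 32 moved beyond it, and 0 called values changed sign. The cause of the moves was not tested. Sqle is the least counted member, with 106 and 179 counts in all. The cells of 10000 or more counts, the split at 2 or more member counts and the steps by DAM markers were chosen after seeing the data.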
